A study of Mus musculus with 4 samples.

Results

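Collagen genes are described here across 4 Affymetrix mouse arrays, 1 array for each of 4 groups of gut cells. A gene counted as a collagen when its symbol was Col, a number, the letter a and a number, with nothing after it. This rule found 44 genes among the 22180 genes measured, and the same 44, matched by gene ID, are those that RefSeq lists for the mouse in GRCm38.p6. They comprised 11 fibrillar, 8 basement membrane, 6 beaded filament, 9 fibril-associated and 4 transmembrane collagens, and 6 network-forming, anchoring or other collagens.

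All groups came from C57Bl/6 mice aged 8 to 10 weeks, with 10 mice (5 male and 5 female) pooled for a sample. The first group, labelled LP, was described as colon lamina propria T cells. SI_IEL were intraepithelial lymphocytes (IEL), the lymphocytes that sit between the epithelial cells of the gut, from the small intestine of unmanipulated mice, and WT_IEL were colon IEL of unmanipulated mice. Recolonized were colon IEL of mice given vancomycin and metronidazole (0.05% each) with ampicillin and neomycin (0.01% each) in the drinking water for 7 days, followed by 7 days of bacterial recolonization. The submitters describe the recolonization both as co-housing and as a transfer of dirty bedding. Epithelial fractions were shaken off the tissue in EDTA, whereas the lamina propria was digested with type IV collagenase after the epithelium had been removed. T cells were then enriched from all fractions by magnetic negative selection with an added antibody to EpCAM, so cells that the selection missed could remain. No array came from mice given antibiotics without recolonization, and whether arrays shared mice is not stated.

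The deposited values are log2 levels, and each was compared for the same gene between arrays, because probe sets differ in brightness and levels of different genes cannot be ranked. A difference of 1 on this scale is 2-fold. Each group was 1 array, so no difference has a replicate check, an error or a test, and the number of arrays limits the precision. A gene was counted as higher or lower at 2-fold or more, provided that on whichever array of the pair it was brighter it reached the 50th percentile of all genes, here called the level floor.

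Collagens are secreted or membrane-bound proteins built as triple helices of alpha chains, and each Col gene encodes one alpha chain. Fibrillar collagens assemble into the tension-bearing fibres of connective tissue, type IV collagen forms the sheet of the basement membrane under epithelium and around vessels and muscle, and type VI collagen forms beaded filaments between them. In the gut wall the main producers of fibrillar collagen are fibroblasts and smooth muscle cells, and T cells are not known as a major source. Prolyl and lysyl hydroxylases, the chaperone HSP47 (Serpinh1) and procollagen proteinases act on the chains before lysyl oxidases cross-link the fibres.

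The cell type labels were checked against marker genes. In the library labelled LP, Cd3e, a subunit of the T cell receptor complex, had a level of 3.72 and Ptprc, the leukocyte antigen CD45, 3.09, against 8.71 to 9.49 for both genes on the other 3 arrays. The median of 7 measured T cell markers was 2.61 there and 5.64 to 6.76 on the other arrays. Its 10 epithelial markers had a median of 8.42, against 6.26 for SI_IEL, 5.44 for the recolonized array and 4.40 for colon IEL. The markers thus went against the label, and this library is called the array labelled LP from here on. Array medians over all genes ran from 2.18 to 2.41. Gene levels had an SD of 1.23 in colon IEL and 1.35 in recolonized colon IEL, against 1.67 and 1.81 for the others.

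Most collagens lay near the median gene level of each array, and a small group stood well above it on the colon IEL arrays. Of the 44 genes, 22 reached the array median on the array labelled LP, 24 did so in small intestinal IEL, 30 in colon IEL and 29 in recolonized colon IEL. The median level of the 44 was 2.14, 2.29, 2.62 and 2.52 in the same order. Levels on all 4 arrays were at or above the array median for 18 genes and under it for 10 (Col4a4, Col4a6, Col6a4, Col6a5, Col8a2, Col11a1, Col12a1, Col15a1, Col19a1 and Col28a1). For 31 of the 44 the 4 levels spanned less than 2-fold. Both colon IEL arrays were above both other arrays in 35 of the 44 genes at any level, and in 26 of the 34 that reached the floor on their brightest array, against 22.5% of all genes at that floor. For 4 genes, Col1a1, Col1a2, Col3a1 and Col6a1, both colon IEL arrays were 2-fold or more above both others, a pattern that 0.896% of all genes at the floor had. The colon IEL array was the highest of the 4 for 24 of those 34 genes (18.8% of all genes) and the recolonized array for 9 (17.8%), while the array labelled LP was the highest for 1, Col8a1 (43.6%). The small intestinal IEL array was the highest for 0 of the 34, against 19.9% of all genes.

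**Figure D1:**
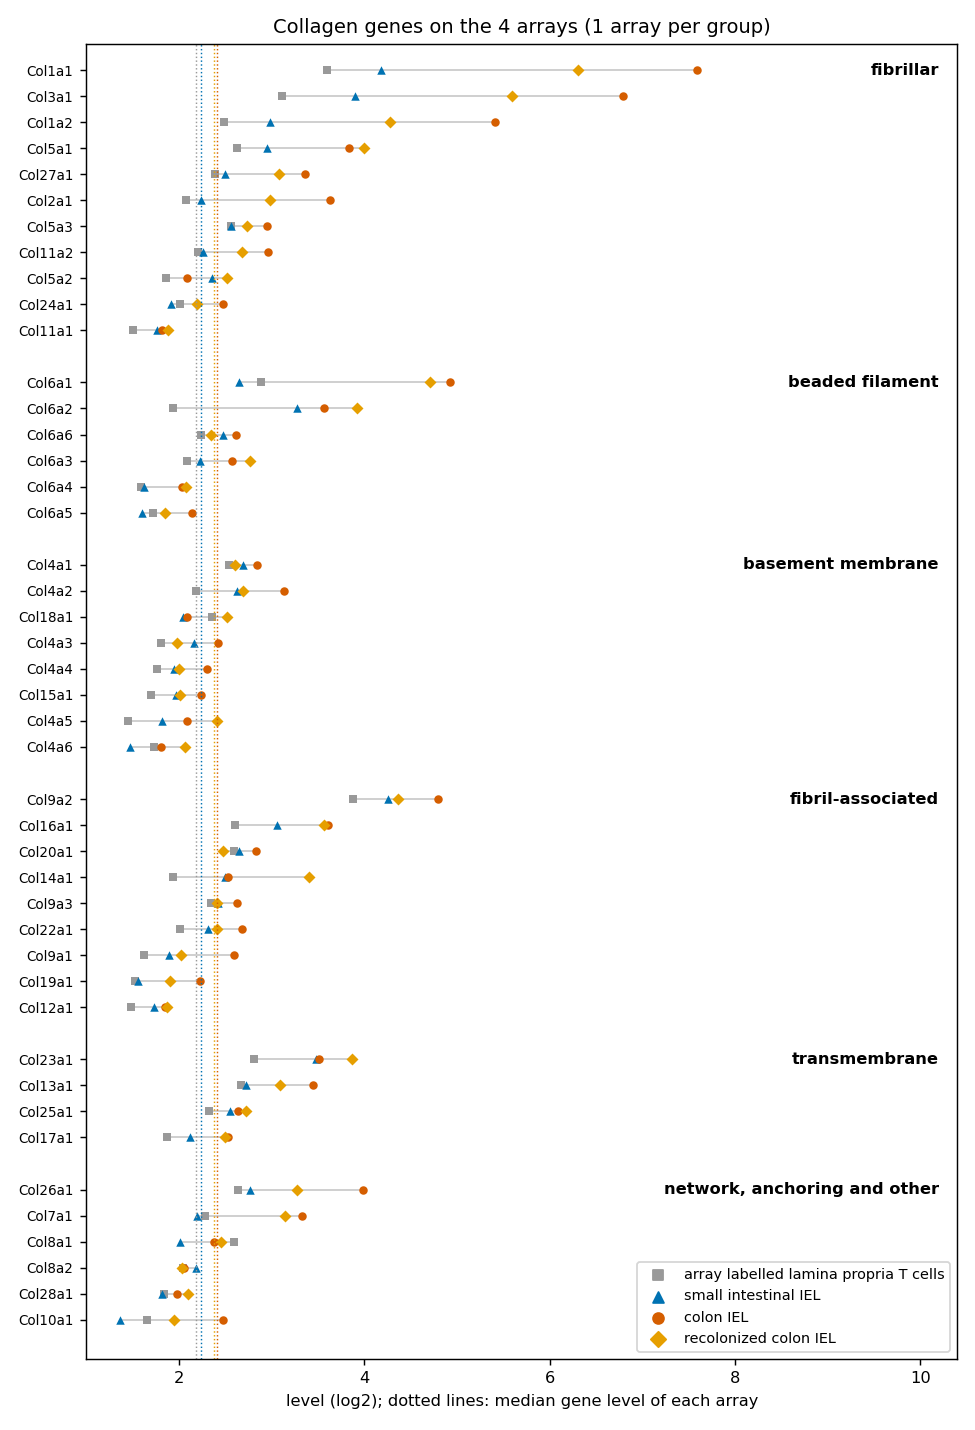
Log2 level (horizontal axis) of each of the 44 collagen genes, grouped by class, with 1 symbol for each of the 4 arrays and a dotted line at each array's median gene level. Col1a1, Col3a1, Col1a2 and Col6a1 reach 7.59, 6.79, 5.41 and 4.93 on the colon IEL array, while most other genes stay close to the dotted lines.

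Among the fibrillar collagens, the genes for types I and III had levels in colon IEL that exceeded those in every other sample by 2-fold or more. Col1a1, the alpha 1 chain of type I collagen and the main chain of scar and connective tissue fibres, had a level of 3.60 on the array labelled LP, 4.18 for small intestinal IEL, 7.59 in colon IEL and 6.31 in the recolonized sample. Both colon IEL arrays lay above both others by at least 2.13, and the recolonized level lay between those of colon and small intestinal IEL. Colon IEL exceeded small intestinal IEL by 3.41 log2 units, or 10.6-fold. Col3a1, the single chain of type III collagen, which is abundant in distensible tissue, had levels of 3.12, 3.90, 6.79 and 5.59 in the same array order. Its colon IEL level was 2.90 log2 units, or 7.46-fold, above the small intestinal one. Col1a2, the second chain of type I collagen, had levels of 2.49, 2.99, 5.41 and 4.28, with a colon IEL level 2.42 log2 units, or 5.35-fold, above that of small intestinal IEL. All 3 genes thus had the same order of arrays, and the colon IEL array was 2-fold or more above the next array for these 3 collagens alone among the 34 at the floor, against 1.4% of all genes.

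The minor and cartilage-type fibrillar chains differed less. Col5a1, a chain of type V collagen, which starts and limits the growth of type I fibrils, had levels of 2.62, 2.95, 3.83 and 3.999 and was highest on the recolonized array. Col5a2, its partner chain, had 1.86, 2.36, 2.09 and 2.52, so that colon IEL lay under small intestinal IEL by 0.27 log2 units. Col5a3 stayed between 2.56 and 2.95. The partner chains of type V therefore did not share one order over the arrays. Col2a1, the collagen of cartilage, had levels of 2.07, 2.24, 3.63 and 2.98, with colon IEL 1.39 above small intestinal IEL. Col27a1 had 2.39, 2.50, 3.36 and 3.08, and Col11a2 had 2.21, 2.26, 2.96 and 2.68. These last 3 genes were higher on both colon IEL arrays than on both others, within a range of at most 1.55. Col24a1 lay between 1.92 and 2.48 and Col11a1 between 1.51 and 1.88, close to or under the array medians. Over the 11 fibrillar genes the median difference of colon against small intestinal IEL was 0.86, with 4 genes 2-fold or more higher (Col1a1, Col1a2, Col3a1 and Col2a1) and 0 lower. Of the 11 genes 10 were above the floor, beside 5.98% higher and 24.4% lower over all genes there. The count of higher genes was 6 after quantile normalization, 6 after centring on genes above the floor and 5 after lowess correction. Of all genes 13.1%, 12.8% and 8.68% were higher under these scalings.

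The promoters of 3 of the 4 genes that were 2-fold or more higher on both colon IEL arrays are shown. These genes shared high levels on the colon IEL arrays, while the sets of motifs in their upstream sequences were not the same. Each is the 250 bases before the RefSeq start in GRCm38.p6, read 5′ to 3′ on the gene's own strand. Col1a2 is at chr6:4505368-4505617 on the plus strand, Col3a1 at chr1:45311288-45311537 on the plus strand and Col6a1 at chr10:76726045-76726294 on the minus strand. Capitals mark matches on either strand to CCAAT (the core of the NF-Y box), TATAAA (the TATA box), GGGCGG (the GC box of SP factors) and GGGAGG (a GC-rich box that such factors can also bind).
Col1a2: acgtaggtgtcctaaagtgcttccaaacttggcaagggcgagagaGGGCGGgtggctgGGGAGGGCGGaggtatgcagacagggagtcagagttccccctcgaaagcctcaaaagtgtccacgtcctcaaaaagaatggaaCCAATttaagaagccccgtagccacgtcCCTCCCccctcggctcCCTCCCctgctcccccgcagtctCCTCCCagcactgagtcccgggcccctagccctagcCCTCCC
Col3a1: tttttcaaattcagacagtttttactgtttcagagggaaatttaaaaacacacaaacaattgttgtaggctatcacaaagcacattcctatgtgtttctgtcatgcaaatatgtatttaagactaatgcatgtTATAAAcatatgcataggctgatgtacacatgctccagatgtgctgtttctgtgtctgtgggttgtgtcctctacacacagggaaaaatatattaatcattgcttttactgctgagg
Col6a1: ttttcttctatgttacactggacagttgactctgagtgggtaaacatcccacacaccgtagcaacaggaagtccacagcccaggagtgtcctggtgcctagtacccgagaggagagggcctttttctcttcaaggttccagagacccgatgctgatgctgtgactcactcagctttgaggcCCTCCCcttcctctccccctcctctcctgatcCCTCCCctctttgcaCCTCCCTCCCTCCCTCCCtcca
The Col1a2 window held 1 CCAAT, 2 GGGCGG and 5 GGGAGG matches, of which a GGGAGG and a GGGCGG overlap. The Col3a1 window held 1 TATAAA and none of the other 3 motifs, and the Col6a1 window held 6 GGGAGG matches, several of them in overlapping repeats, and none of the others. Col1a2 and Col6a1 thus shared GGGAGG, and Col3a1 shared no marked motif with them. Of all 32851 promoter windows of this length, 33.8% held CCAAT, 12.4% TATAAA, 32.7% GGGCGG and 38% GGGAGG. Of 38 windows of 35 collagen genes, 34.2% (13), 13.2% (5), 57.9% (22) and 71.1% (27) did. A match is a run of letters and not a measured binding site. Col1a1 has no entry in the promoter table used here.

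Among the beaded filament collagens, Col6a1 stood apart from the other type VI chains. Col6a1, the alpha 1 chain of type VI collagen, had a level of 2.89 on the array labelled LP, 2.65 for small intestinal IEL, 4.93 in colon IEL and 4.71 in the recolonized sample. The colon IEL arrays were close to each other and at least 1.83 above the other arrays. Col6a2, which pairs with it in the protein, had 1.93, 3.27, 3.56 and 3.92, so that the array labelled LP was low and the 3 IEL arrays lay within 0.65. Col6a3, the third classical chain, stayed between 2.09 and 2.76, highest on the recolonized array. Col6a4, Col6a5 and Col6a6, the later-described chains that can replace the third, stayed between 1.59 and 2.61. The 3 classical chains form one molecule, and their genes differed in size of difference: colon against small intestinal IEL was 2.28 for Col6a1, 0.29 for Col6a2 and 0.35 for Col6a3.

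Col1a2, Col5a1 and Col6a1 each had another probe set with a single symbol, which did not give the same pattern. For Col1a2 the other probe set read 1.59, 1.59, 2.05 and 1.86, a difference of 0.46 between colon and small intestinal IEL against 2.42 for the brighter one. For Col6a1 it read 1.42, 1.63, 1.71 and 2.07, with a difference of 0.08 against 2.28. For Col5a1 it read 1.59, 1.73, 2.13 and 1.51, and recolonized against small intestinal IEL was -0.22 against 1.05. All 3 of these other probe sets lay under the array median on every array. Col1a1 and Col3a1 each had 1 probe set, so this comparison was not open to them.

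**Figure D2:**
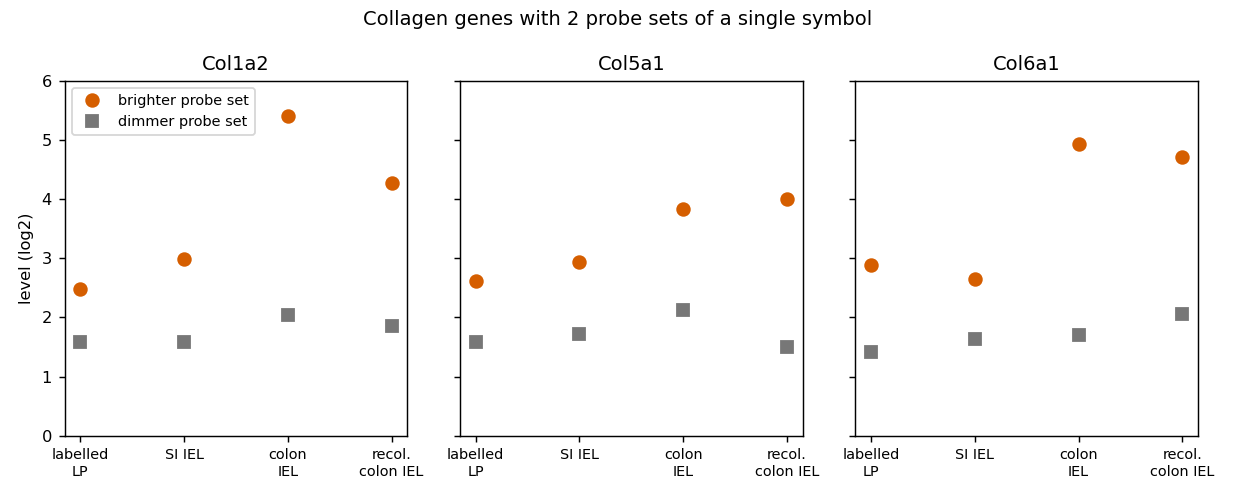
Log2 level on each of the 4 arrays for both single-symbol probe sets of Col1a2, Col5a1 and Col6a1, with circles for the probe set used and squares for the other. The circles of Col1a2 and Col6a1 reach 5.41 and 4.93 on the colon IEL array, whereas the squares of all 3 genes stay at or under 2.13.

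Basement membrane collagens differed little between arrays: 0 of the 8 reached 2-fold in any of the 4 comparisons on the values as deposited. Between 3 and 5 of the 8 were above the floor in a comparison. Over all genes above the floor 5.98% were higher and 24.4% lower for colon against small intestinal IEL. The shares were 10.5% and 34.7% for colon IEL against the array labelled LP, and 4.76% and 17.9% for recolonized against small intestinal IEL. Recolonized against colon IEL had 6.04% and 3.06%. With so few genes above the floor, a count of 0 says little about the class. All 8 had a positive difference there as deposited, beside 54.6% of all genes. Col18a1 was at -0.18 after quantile normalization and -0.21 after lowess correction. Col4a2 differed by 0.95 between colon IEL and the array labelled LP, and by 1.07 after quantile normalization and 1.39 after centring, which is over 2-fold. After centring Col4a3 was over 2-fold too, at 1.05. Col4a1 and Col4a2, the chains of the ubiquitous type IV network, had levels of 2.54, 2.70, 2.84 and 2.60 and of 2.18, 2.63, 3.13 and 2.69. The 4 levels of Col4a1 spanned 0.30. Col4a3 (1.81, 2.17, 2.42 and 1.98) and Col4a4 (1.76, 1.95, 2.30 and 1.998), chains of specialised membranes such as that of the kidney glomerulus, were highest for colon IEL. Col4a5 (1.45, 1.82, 2.09 and 2.41) and Col4a6 (1.74, 1.48, 1.81 and 2.06) were highest on the recolonized array. Both pairs were weak signals, under the array median on most arrays. Col15a1 stayed between 1.70 and 2.23, and Col18a1, whose C-terminal fragment is endostatin, between 2.05 and 2.52. The median difference of colon against small intestinal IEL over the 8 genes was 0.27, against 0.86 for the fibrillar class. Of 16 listed partner genes of the basement membrane 15 were measured, and 9 were above the floor for colon against small intestinal IEL. As deposited 1 was higher by 2-fold and 0 lower, beside 5.98% and 24.4% of all genes. The higher one was Nid1 (nidogen 1, a linker of laminin and type IV collagen), with levels of 2.43, 3.40, 5.20 and 6.24. Hspg2, the proteoglycan perlecan, was 0.94 higher, and the laminin chains Lamc3 and Lamb2 were 0.89 and 0.62 higher. The count of higher partners was 3 after quantile normalization, 3 after centring and 2 after lowess correction. Of all genes 13.1%, 12.8% and 8.68% were higher under these scalings.

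Fibril-associated collagens sit on the surface of fibrils. Col14a1 had levels of 1.94, 2.50, 2.53 and 3.41 and was the fibril-associated gene with the widest gap between recolonized and unmanipulated colon IEL, at 0.87. Its colon IEL level did not exceed its small intestinal level by more than 0.04, unlike the type I and III genes. Col16a1 had 2.60, 3.06, 3.61 and 3.57, and Col9a2 had 3.88, 4.25, 4.79 and 4.36. Both were higher on the colon IEL arrays than on the others, with differences of colon against small intestinal IEL of 0.55 and 0.54. After quantile normalization these came to 1.06 and 1.57, and Col9a2 came to 1.38 after lowess correction, all over 2-fold. Against the array labelled LP, Col9a2 differed by 0.92 as deposited and 2.07 after quantile normalization. Centring put 5 of the 9 fibril-associated genes over 2-fold there, against 1 as deposited, with 7 of the 9 above the floor. Of all genes above the floor 22.3% were higher there after centring, against 10.5% as deposited. For colon against small intestinal IEL as deposited, Col9a1 and Col19a1 differed by 0.70 and 0.66, at levels between 1.53 and 2.59 over the 4 arrays. Col9a3, Col12a1, Col20a1 and Col22a1 stayed within 0.36 for that pair of arrays.

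Of the transmembrane collagens, Col13a1 was highest for colon IEL, with levels of 2.67, 2.73, 3.44 and 3.09. Col23a1 was highest on the recolonized array, with 2.81, 3.48, 3.51 and 3.87. Col17a1, a hemidesmosome component, lay between 1.88 and 2.53 and Col25a1 between 2.32 and 2.72. None of the 4 reached 2-fold in any of the 4 comparisons on the values as deposited, while under at least 1 other scaling Col13a1, Col17a1 and Col23a1 did so for colon IEL against the array labelled LP, and Col13a1 also against small intestinal IEL. Among the remaining genes, Col7a1, which forms anchoring fibrils beneath epithelium, had 2.28, 2.19, 3.32 and 3.14, with both colon IEL arrays above both others. Col26a1 had 2.64, 2.77, 3.98 and 3.27, and Col10a1, a network collagen of hypertrophic cartilage, had 1.65, 1.37, 2.47 and 1.94. Each of these 3 was 2-fold or more higher for colon than for small intestinal IEL. For Col10a1 the difference of 1.11 came to 0.97 after quantile normalization and 0.87 after lowess correction, and the gene was under the floor at the 75th percentile or on the mean over the arrays. Col8a1, Col8a2 and Col28a1 stayed between 1.81 and 2.60, with the highest array not being the colon IEL array for any of them.

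Colon against small intestinal IEL gave 8 of the 44 collagens higher by 2-fold or more (Col1a1, Col1a2, Col2a1, Col3a1, Col6a1, Col7a1, Col10a1 and Col26a1) and 0 lower, with 31 of the 44 above the floor. Over all genes above the floor, 5.98% were higher and 24.4% lower. The median difference was 0.38 over the 44 collagens, 0.06 over all genes and -0.30 over all genes above the floor, and 42 of the 44 were positive against 54.6% of all genes. The count of positive collagens was 37 after quantile normalization, 35 after lowess correction and 44 after centring. Part of that split goes with level on these arrays: among genes with a mean under the median the median difference was 0.19 overall and 0.34 for the 20 collagens there. Among brighter genes it was -0.39 overall and 0.54 for the 24 collagens there, all 24 of them positive as deposited. After lowess correction Col14a1, Col25a1 and Col6a6 among these were negative, at -0.14, -0.06 and -0.04. Of all calls in this comparison 19.7% were higher as deposited, 49.6% after quantile normalization, 42.1% after centring on genes above the floor and 39.7% after lowess correction.

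Colon IEL against the array labelled LP shares the colon IEL array with that comparison. Here 10 collagens were higher (Col1a1, Col1a2, Col2a1, Col3a1, Col5a1, Col6a1, Col6a2, Col7a1, Col16a1 and Col26a1) and 0 lower, against 10.5% and 34.7% of all genes above the floor. With the mean of all probe sets Col5a1 differed by 0.87, which is under 2-fold, and the other 9 remained. The difference was 3.99 for Col1a1, 3.68 for Col3a1, 2.92 for Col1a2 and 2.04 for Col6a1. Recolonized against small intestinal IEL shares the small intestinal array with the first comparison. It gave 5 higher (Col1a1, Col1a2, Col3a1, Col5a1 and Col6a1) and 0 lower, against 4.76% and 17.9% of all genes. There the differences were 2.13 for Col1a1, 1.70 for Col3a1, 1.29 for Col1a2 and 2.06 for Col6a1. With the mean of all probe sets of a gene, Col1a2 differed by 0.78 and Col5a1 by 0.41, both under 2-fold. For these 2 comparisons the share of calls that were higher was 23.2% and 21.0% as deposited, and 48.9% and 49.2% after quantile normalization. Centring gave 47.6% and 38.0% and lowess correction 44.2% and 37.7%.

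**Figure D3:**
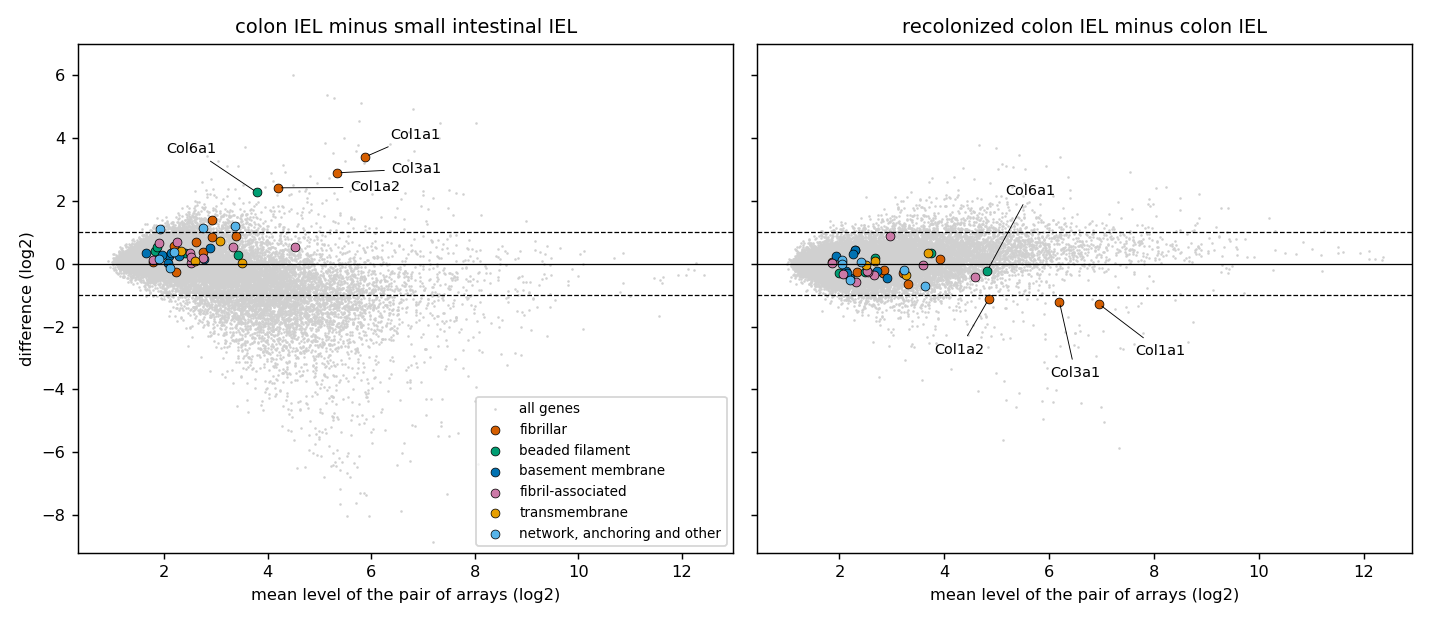
Log2 difference (vertical axis) against the mean log2 level of the pair of arrays (horizontal axis) for all genes (grey) and the 44 collagens (coloured by class), with dashed lines at 2-fold. On the left Col1a1, Col3a1, Col1a2 and Col6a1 lie 3.41, 2.90, 2.42 and 2.28 above 0, and on the right Col1a1, Col3a1 and Col1a2 lie below the lower dashed line.

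In recolonized against unmanipulated colon IEL, which uses the colon IEL array of the comparisons above, the type I and III collagens were lower. Col1a1 was 1.28 lower on the log2 scale, Col3a1 1.20 lower and Col1a2 1.13 lower, which made 3 collagens lower by 2-fold or more and 0 higher. With the mean of its probe sets Col1a2 differed by -0.66, which is under 2-fold. Over all genes above the floor 3.06% were lower and 6.04% higher, and the share of calls that were higher was 66.3% as deposited, 48.8% after quantile normalization, 48.2% after centring and 46.6% after lowess correction. Col6a1 differed by -0.22, by -0.61 to -0.35 under the 3 other scalings and by 0.07 with the mean of its probe sets. Col5a1 differed by 0.17, by 0.04 after centring, -0.04 after quantile normalization and -0.05 after lowess correction, and by -0.23 with the mean of its probe sets, so its direction depended on the scaling. The recolonized levels of all 3 lower genes still lay above those of small intestinal IEL. The colon IEL level exceeded the recolonized level in 29 of the 44 collagens, and the median difference was -0.22 against 0.03 over all genes. The recolonized level was the higher one in 15 of the 44 (34.1%), against 53.8% of all genes. That 15 was the same after quantile normalization and lowess correction. It was 9 after centring, where the median difference over all genes was -0.09.

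Several proteoglycans that bind fibrils had the opposite direction, while other fibril partners were close to even or lower. Decorin (Dcn), a proteoglycan that coats type I fibrils, had levels of 3.26, 6.23, 7.96 and 9.03 and was 1.07 higher on the recolonized than on the unmanipulated colon IEL array. Lumican (Lum), a related proteoglycan, had 1.42, 2.30, 2.17 and 4.16, with a difference of 1.99. Osteoglycin (Ogn) had 2.04, 2.75, 3.08 and 5.43, with a difference of 2.35. These 3 proteoglycans were thus highest on the recolonized array, where the type I and III chains were not. Biglycan (Bgn) differed by 1.12 and periostin (Postn) by 1.05. Of the 22 measured fibril partners in a list of 23, 5 were 2-fold or more higher and 0 lower, with a median of 0.41 and 16 positive. Of these partners 19 were above the floor. Over all genes above the floor 6.04% were higher and 3.06% lower, and 53.8% of all genes were positive. Over the scalings and the mean of probe sets the difference was 0.49 to 1.07 for Dcn, 0.08 to 1.12 for Bgn and 0.86 to 1.12 for Postn, so none of these 3 kept 2-fold throughout, while Lum stayed at 1.86 or more and Ogn at 2.08 or more. Under quantile normalization 3 were higher and 1 lower, under centring 2 and 0, under lowess correction 2 and 1. Sparc, a matrix glycoprotein that binds collagen, had 2.97, 3.55, 5.93 and 5.30 and fibronectin (Fn1) 1.85, 2.78, 5.43 and 5.32. Both had the array order of Col1a1, with smaller gaps between the colon IEL arrays of -0.63 and -0.10. Elastin (Eln) had 1.89, 2.22, 3.79 and 3.32, also in that order, and the fibulin Fbln1 had 3.09, 4.99, 3.57 and 4.40. For colon against small intestinal IEL 8 of the 22 fibril partners were higher and 1, Fbln1, was lower, with 0 lower after quantile normalization. With 14 partners above the floor there, these counts stood beside 5.98% higher and 24.4% lower over all genes.

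**Figure D4:**
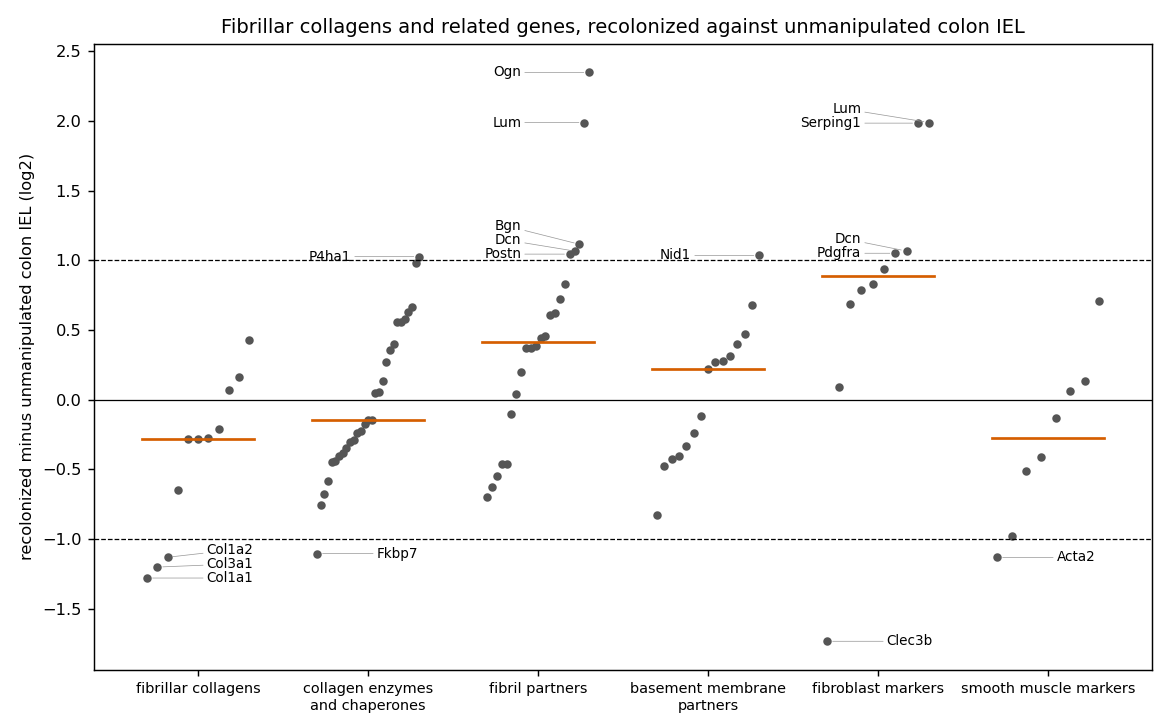
Log2 difference of recolonized minus unmanipulated colon IEL (vertical axis), 1 point per measured gene, for fibrillar collagens and 5 other lists, with the list median as an orange line and dashed lines at 2-fold. Col1a1, Col3a1 and Col1a2 lie below the lower dashed line, while Ogn and Lum lie at 2.35 and 1.99.

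Genes for making collagen were split among those that differed by 2-fold. Of 33 listed enzymes and chaperones 29 were measured, with 22 positive (75.9%) and a median of 0.37 for colon against small intestinal IEL. Of all genes 54.6% were positive, and of genes with a mean under the median 76.1%, with medians of 0.06 and 0.19. Fkbp7, an endoplasmic reticulum prolyl isomerase, and Pcolce, which enhances procollagen cleavage, were the 2 members higher for colon against small intestinal IEL by 1.35 and 1.04. P4hb, the shared subunit of prolyl 4-hydroxylase and a general protein disulfide isomerase, was 3.52 lower and Mia3, which exports procollagen, was 1.18 lower. Of the 20 members above the floor 10% were higher and 10% lower, beside 5.98% and 24.4% of all genes there. Over the scalings Pcolce came to 0.89 and Mia3 to -0.74 at the least, both under 2-fold. Serpinh1, the collagen chaperone HSP47, had levels of 2.30, 2.80, 3.39 and 3.95. P4ha1, the catalytic subunit of prolyl 4-hydroxylase, had 3.38, 3.14, 3.32 and 4.34, and Lox, which cross-links fibrils, 1.42, 1.48, 2.16 and 1.88. Serpinh1 and P4ha1 were thus highest on the recolonized array, where P4ha1 was 1.03 above colon IEL, the only member of the list 2-fold or more higher there, and Fkbp7 was 1.10 lower. As deposited, 5% of the 20 members above the floor were higher and 5% lower there, beside 6.04% and 3.06% of all genes. After centring and after lowess correction 0 members of the list were higher, with P4ha1 at 0.83 at the lowest.

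Collagen receptors were also mixed. Of 11 measured of 12, Mrc2, an endocytic collagen receptor, was 1.19 higher for colon against small intestinal IEL. Itga1, the alpha 1 chain of a collagen-binding integrin that marks tissue-resident T cells, had 2.96, 7.04, 4.33 and 4.84 and was 2.71 lower, and the inhibitory receptor Lair1 was 1.48 lower. With 8 receptors above the floor this made 12.5% higher and 25% lower, beside 5.98% and 24.4% of all genes. Ddr2, a receptor kinase for fibrillar collagen, stayed between 1.85 and 2.69, and the related Ddr1 had 6.14, 4.11, 3.38 and 2.95. Among 12 proteases and inhibitors, Mmp10 was the only gene 2-fold higher for colon against small intestinal IEL, by 1.08, and 0 were lower. Only 5 of the 12 were above the floor there, beside the same shares of all genes. The gelatinase Mmp9 was 0.79 above. Recolonized against unmanipulated colon IEL, Mmp2, a gelatinase, was 1.11 higher, Mmp14, a membrane-bound collagenase, 1.11 higher and Timp2, an inhibitor that binds both, 1.94 higher. With 6 members of the list above the floor, these 3 higher and 0 lower stood beside 6.04% and 3.06% of all genes. Of these 3 calls 1 was left after centring and 2 after lowess correction: the lowest differences were 0.98 for Mmp2, 0.93 for Mmp14 and 1.51 for Timp2. No receptor reached 2-fold in that comparison.

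Markers of cells that make collagen had higher medians in both colon IEL samples, without one shared order of the arrays. The median of 10 fibroblast markers was 2.15 on the array labelled LP, 2.41 for small intestinal IEL, 3.50 in colon IEL and 4.28 in the recolonized sample, with 5, 7, 8 and 8 of the 10 at or above the array median. Their levels ranged from 1.23 to 7.96 for colon IEL and from 1.92 to 9.03 for the recolonized array, with C1s1 the lowest on colon IEL. For colon against small intestinal IEL 4 of the 10 were higher by 2-fold (Clec3b, Dpt, Dcn and Serping1) and 1 lower (Fbln1), beside 5.98% and 24.4% of all genes above the floor. For recolonized against unmanipulated colon IEL 4 were higher (Pdgfra, Dcn, Lum and Serping1) and 1 lower (Clec3b), beside 6.04% and 3.06%. That 4 became 3 after quantile normalization and after lowess correction and 2 after centring. Dpt had levels of 2.51, 4.30, 6.36 and 7.30 and Pdgfra, a platelet-derived growth factor receptor, 1.67, 2.03, 2.43 and 3.48. Between the colon IEL arrays the type I and III collagens were lower after recolonization, while 9 of the 10 fibroblast markers were higher by some amount. Of all genes 53.8% were higher there by some amount, and of genes with a mean at or above the median 61.6%. The median difference of the 10 markers was 0.89 as deposited and 0.63 after quantile normalization.

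The 8 smooth muscle markers had medians of 1.96, 2.14, 2.65 and 2.61. Acta2, smooth muscle actin, had levels of 4.02, 4.11, 6.15 and 5.02 and Myh11, smooth muscle myosin, 2.64, 2.52, 4.01 and 3.03. Acta2 was 1.13 lower on the recolonized than on the unmanipulated colon IEL array and Myh11 0.98 lower. Not all 8 went that way: 3 were higher on the recolonized array, by up to 0.71, and the median was -0.27. Acta2 was the 1 marker of this list lower by 2-fold, with 7 above the floor, beside 3.06% of all genes. Of the other contractile genes, Cnn1 was 1.26 and Actg2 0.45 higher for colon against small intestinal IEL. Acta2 had the array order of Col1a1, and Myh11 differed from it in that small intestinal IEL was the lowest. The mesothelial marker Upk3b had 2.42, 3.28, 5.14 and 5.40, and Wt1 and Lrrn4 were 1.17 and 0.57 higher in colon than in small intestinal IEL. Among 6 pericyte markers Kcnj8 was 1.38 higher, Cspg4 0.26 higher and Pdgfrb within 0.02. The endothelial markers Pecam1 (3.51, 5.39, 5.39 and 5.64) and Cdh5 (2.30, 2.77, 2.79 and 3.37) differed between colon and small intestinal IEL by 0.02 or less, but Kdr, a vascular endothelial growth factor receptor, had 1.61, 1.81, 3.14 and 1.96 and was 1.33 higher. Kdr was the 1 endothelial marker of 10 that reached 2-fold for this pair of arrays as deposited. Of the 10, 3 were above the floor, beside 5.98% higher and 24.4% lower over all genes. After quantile normalization 2 of the 10 were higher, beside 13.1% of all genes. As deposited, the glial marker Gfra3 and the adipocyte marker Plin1 differed by 0.20 and 0.39 for the same pair. The red cell gene Slc4a1 was 7.93 for colon IEL against 2.32 to 2.64 on the other arrays. Fech was 4.48 and Epb42 0.84 above small intestinal IEL. Among epithelial markers Vil1, Krt20, Epcam and Cldn4 differed by -5.18, -5.15, -3.60 and -2.40, and among T cell markers Cd3g, Cd2, Zap70 and Lat by -1.22, 0.93, -0.54 and -0.45. The B cell genes Ms4a1, Blk, Cd79a and Cd79b differed by -3.48, -2.13, -1.92 and -1.68, and the macrophage genes C1qb, Adgre1, Cd68 and C1qc by -1.49, 1.06, -0.92 and 0.48. The reference genes Sdha, Hprt, Pgk1 and Gapdh differed by -1.94, -1.93, -1.48 and -1.37. The part of these cells in the collagen levels was not tested, and in bulk samples fewer cells of a type and less RNA per cell cannot be told apart.

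Collagen genes that lie side by side in the genome did not always have the same pattern. Col3a1 and Col5a2, neighbours on chromosome 1, differed by 2.90 and -0.27 for colon against small intestinal IEL. Col6a2 and Col6a1, neighbours on chromosome 10, differed by 0.29 and 2.28. Col4a1 and Col4a2 on chromosome 8, which start on opposite strands with promoter windows that share 78 of 300 bases, differed by 0.14 and 0.51. Col6a6, Col6a5 and Col6a4 on chromosome 9 differed by 0.13, 0.54 and 0.41. Over the 4 arrays the genes whose centred levels lay nearest to those of Col1a1 were Sparc, Fn1, Smarcd1, Snora61 and Mir181d, at Euclidean distances of 0.84, 0.87, 0.89, 0.92 and 0.94 log2 units. For Col4a1 they were Dtx2, Oas3, Tubgcp5, Cldn13 and Kcp, at 0.01, 0.04, 0.04, 0.05 and 0.05. With 4 arrays a small distance is easily reached by genes that hardly vary.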

How the data were processed

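Levels were measured in 4 samples, 1 array per group. The deposited values are log2 levels. Per the submitters' processing notes the authors used Affymetrix Expression Console. Its version, the summarization and the scaling were not given in the sources used here, and depth has no counterpart on arrays. Of 41345 probe sets 23521 listed 1 gene symbol in the platform annotation, 1814 several and 16010 none; those with several named no gene. Where a gene had several, the brightest on average was used (22180 genes, 1082 with more than 1). Differences, medians and counts were computed in Python 3.11.15 with pandas 2.3.3, numpy 2.4.6 and statsmodels 0.14.6 (lowess span 0.3), and checked on simulated data.

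The collagen rule, the gene lists and the alternatives were chosen with earlier results of these data known, so no list is independent evidence. All collagens are named, with 4 members of each other list by largest difference of colon against small intestinal IEL, a set of genes named in any case, and the 5 genes nearest to Col1a1 and to Col4a1. Bgn, Ogn, Postn, Serping1, Mmp14 and C1s1 were named after their values were seen. Alternatives were other floors, folds, probe set rules and scalings. Promoter sequences are RefSeq's, from a table of GRCm38.p6; 35 of the 44 genes matched.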

Additional observations from a re-analysis of the deposited data

How the results depend on the processing

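No paired analysis was possible because each group is 1 array and its replicate number is a name. Each of the 4 comparisons was repeated with lower (25th percentile), higher (75th) or no level floors or one on the mean over arrays, thresholds of 1.5-fold and 3-fold, averaged probe sets, and with quantile, centring or lowess scaling. At 1.5-fold, 13 collagens were higher for colon against small intestinal IEL, 22 for colon IEL against the array labelled LP and 10 for recolonized against small intestinal IEL; in recolonized against unmanipulated colon IEL 1 was higher and 5 lower. At 3-fold these counts were 4, 5 and 3, and 0 were lower on the recolonized than on the unmanipulated colon IEL array. Centring raised the count against the array labelled LP to 22. With the mean of all probe sets, 3 were higher for recolonized against small intestinal IEL, and with quantile normalization 8 were. Quantile normalization also gave 1 higher and 5 lower for recolonized against unmanipulated colon IEL. Under every setting 0 collagens were lower in the first 3 comparisons, and no named collagen or gene value changed sign where it was called. Col1a1 differed by 3.41 to 4.41 and Col3a1 by 2.90 to 3.88 for colon against small intestinal IEL over the scalings and probe set rules, while Col1a2 ranged from 1.44 to 3.25 and Col6a1 from 1.18 to 3.05. Leaving out the array labelled LP, an alternative chosen after seeing the data, left 24 collagens with the colon IEL array highest; quantile normalization gave 25 and the mean of probe sets 24. Centring shifts the differences by the median of genes above the floor, which was -0.30, -0.44, -0.20 and 0.13 for the 4 comparisons. Of the values of single genes over these settings, 1044 moved by less than the SD of ribosomal protein genes in that comparison (0.52 to 0.58 over 57 genes) and 76 by more. Floors and thresholds leave a gene's difference unchanged, so only the scalings and the averaging of probe sets could move a value. Most of the 1044 were therefore fixed in advance and do not measure stability. With 1 array per group no spread between replicates was available, and weak signals near the array median limit what could be seen for most collagens.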
